A study of Mus musculus with 22 samples.

Results

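Transcripts of 9 genes of the tumour necrosis factor (TNF) family, 5 receptors and 4 ligands, were followed in a mouse lung epithelial cell line after exposure to multiwalled carbon nanotubes. The receptors were Tnfrsf11b, Tnfrsf12a, Tnfrsf1a, Tnfrsf1b and Tnfrsf10b, and the ligands were Tnf, Tnfsf9, Tnfsf10 and Tnfsf11. The probes of these genes were found through the accession that the array gives each probe, and the set of genes itself was chosen with earlier results of these data known. They were covered by 10 of the 55681 probes on the array, and they are 9 of the 20018 genes that could be named.

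The cells were FE1, a single spontaneously immortalised line from the lung of the Muta Mouse, a strain with a lacZ transgene. All groups carried that transgene and were kept in the same serum-containing medium with epidermal growth factor. The nanotubes, Mitsui7, were given in culture medium at 12.5 µg/ml (low dose, D1, 6 arrays), 25 µg/ml (medium dose, D2, 5 arrays) or 100 µg/ml (high dose, D3, 6 arrays), against a vehicle control (0 µg/ml, 5 arrays), for 24 h. RNA of each culture was labelled with Cy5 and hybridised with a Cy3-labelled reference RNA pooled from 11 mouse cell lines on 2-colour Agilent arrays, without a dye swap. The level used throughout is the log2 ratio of Cy5 to Cy3, so 0 means the same signal as in the reference.

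TNF family ligands are mostly made as membrane proteins that act as trimers, on neighbouring cells or after shedding. Their receptors fall into those with a death domain, which can recruit caspase-activating adaptors, those that bind TRAF adaptors and feed into NF-kB and MAP kinase signalling, and decoys that bind ligand without signalling. In airway epithelium, TNF acting on TNFR1 is a classical inducer of adhesion molecules and chemokines.

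The 22 arrays had between 23688 and 39139 probes above the detection limit, which was set from 308 negative control spots of each array. The arrays lay on 5 slides, 4 of which held control and exposed samples, and slide was a term in the model. Low dose replicate 1 and medium dose replicate 2 stood apart from their own groups, with mean correlations of deviations of −0.16 and −0.17, and each resembled 1 array of the other group most (0.68 and 0.42). Without both arrays, 2, 2 and 3 of the 9 genes were called at the low, medium and high dose, as with them. Likeness within a group was weak among the other low and medium dose arrays too, with mean correlations of 0.01 to 0.11. Each medium dose array resembled an array of another group most. Of 7 epithelial markers, the keratins Krt7, Krt8 and Krt18 were detected on all 22 arrays and Krt19 on 21, but Cdh1 (E-cadherin) on 0 and Epcam on 10, on none of them well above the scanner software's background. Detection does not mean a high level here. Mean control log2 ratios were −0.31 for Krt7 but −4.35, −5.62 and −4.91 for Krt8, Krt18 and Krt19. The fibroblast markers Col1a1, Col1a2, Pdgfra and Thy1 were detected on all 22 arrays, with mean control ratios of 1.77, 1.26, −1.51 and −2.76.

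A change was called when the Benjamini-Hochberg adjusted p of limma, taken over all 55681 probes, was at most 0.05, the difference was at least 1.5-fold (0.58 on the log2 scale), and a minimum of 4 arrays in 1 of the groups compared showed the probe above its detection limit. At the low dose 2 of the 6 detected family members were called, both higher than control. The background in the same comparison was 5.28% of the detected genes called, with 2.21% called higher and 3.06% lower. At the medium dose the same pair was called among 7 detected members, against 8.97% of all detected genes (4.29% higher and 4.68% lower). Exposure to 100 µg/ml gave 3 calls among 8 detected members, 2 higher and 1 lower, against 11.9% of all detected genes, of which 5.47% were called higher and 6.44% lower. On the arrays, the genes called higher at every dose were Tnfrsf11b and Tnfrsf12a, and the gene called lower at the high dose was Tnfrsf1a. With no limit on fold, 3, 3 and 5 members had an adjusted p of at most 0.05, against 9.83%, 14.9% and 20.8% of detected genes. No ligand was called at any dose, and none had an unadjusted p under 0.05, which 27.7%, 33.1% and 36.2% of detected genes met. Most ligands could not have been called, since only Tnfsf9 met the detection rule at every dose. Tnf met it at the medium and high dose, Tnfsf11 at the high dose and Tnfsf10 at none. Over all 9 members, detected or not, the median change was 0.08, 0.1 and 0.09 on the log2 scale at the low, medium and high dose. The median of all genes on the array that were detected was 0, 0 and 0.01, so the 2 medians differ in their filter.

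In bulk samples, fewer cells of a type and less RNA per cell cannot be told apart, and this applies to every gene described here. Marker genes also moved with dose. The log2 of the summed ratio of the 4 fibroblast markers was 2.44 to 3.05 on control arrays, 1.45 to 2.03 at the low, 1.37 to 1.71 at the medium and 1.09 to 1.59 at the high dose. Within it Col1a1, Col1a2 and Pdgfra changed by −1.34, −1.52 and −1.53 at the high dose and Thy1 by −0.02. For the epithelial markers the same measure was 1.5 to 1.64 on control arrays and 1.19 to 1.33 at the high dose. Within it only Krt7 was called lower, by limma, at the medium and high dose (−0.79 and −0.85, adjusted p = 0.000257 and 4.92e-05), while Krt8, Krt18 and Krt19 changed by −0.14, −0.03 and −0.28 at the high dose and were not called. That sum rests mostly on Cldn4, Krt7 and Cdh1, with mean control ratios of 0.28, −0.31 and −0.32. Krt8, Krt18 and Krt19, far under the reference, add little to it. Cldn4 was well above background on only 5 arrays and changed by −0.23 at the high dose, not called, and Cdh1 was not detected. For the 5 leukocyte markers on the array it was 0.55 to 0.98 and 0.47 to 0.94, and for the 3 endothelial ones 1.31 to 1.53 and 1.41 to 1.62. The part of these shifts in the changes of Tnfrsf11b, Tnfrsf12a and Tnfrsf1a was not tested.

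**Figure D1:**
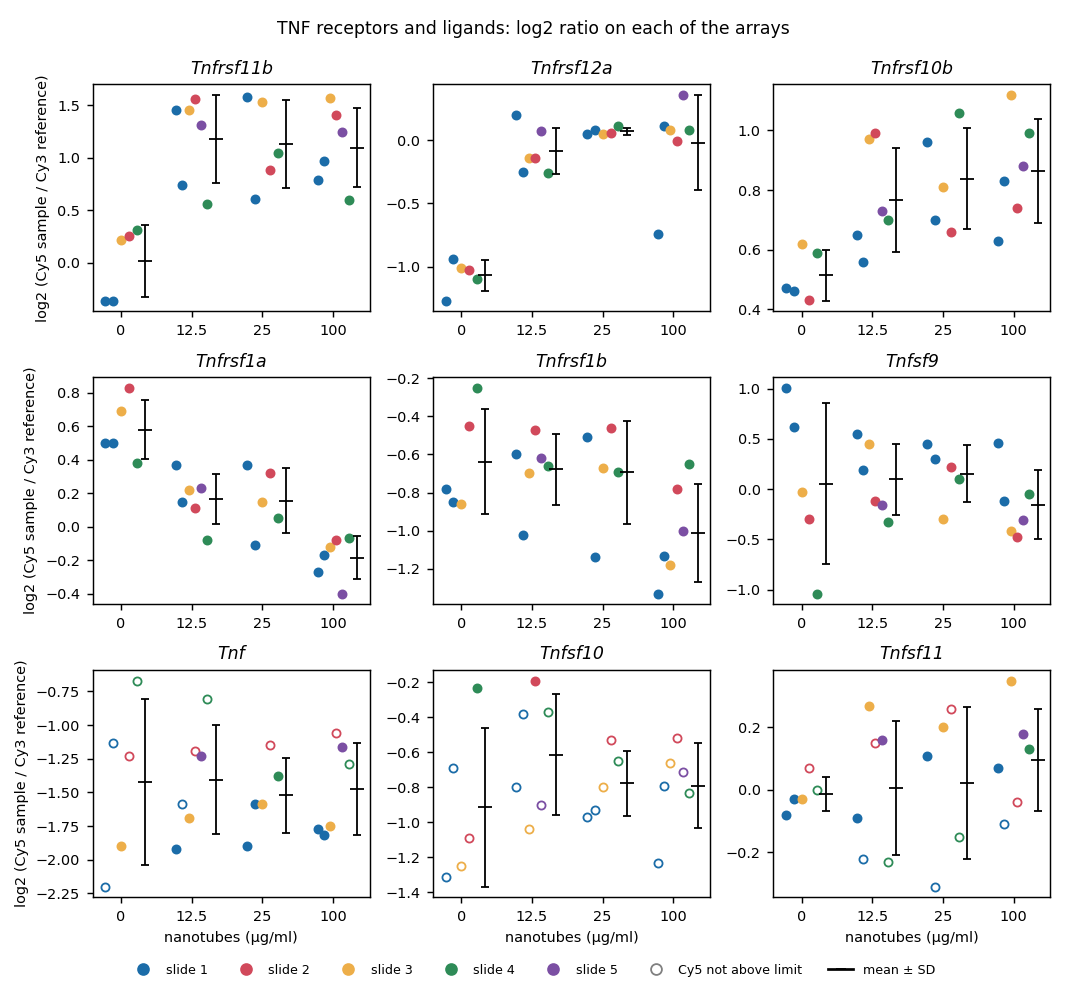
Log2 ratio of Cy5 sample to Cy3 reference (y axis) on each array, by nanotube dose in µg/ml (x axis), 1 panel per gene. Points are coloured by slide, open points are arrays where the Cy5 signal was not above the detection limit, and the black bar is mean ± SD. Exposed arrays lie above every control array for Tnfrsf11b and Tnfrsf12a and below every control array for Tnfrsf1a, while Tnf, Tnfsf10 and Tnfsf11 are at or near the limit.

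**Figure D2:**
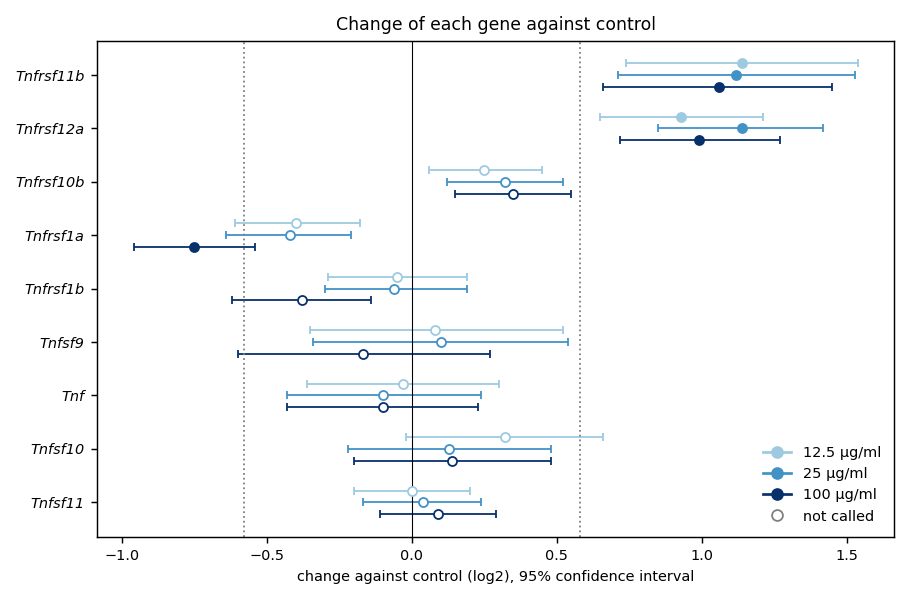
Fitted change against control (x axis, log2) of each gene at the 3 doses, with 95% confidence intervals. Filled points passed all criteria of a call and dotted lines mark 0.58. Both filled sets on the right are Tnfrsf11b and Tnfrsf12a, and the filled point on the left is Tnfrsf1a at the high dose.

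Tnfrsf11b encodes osteoprotegerin, a secreted decoy receptor that binds RANKL (Tnfsf11) and also TRAIL (Tnfsf10). Its log2 ratio was −0.36, −0.36, 0.22, 0.26 and 0.31 on the control arrays (mean 0.01 ± 0.34, SD, n = 5). On the medium dose arrays it was 1.58, 0.61, 1.53, 0.88 and 1.04 (1.13 ± 0.42, SD, n = 5). The 6 low dose arrays ran from 0.56 through a median of 1.38 to 1.56, and the 6 high dose arrays from 0.6 through 1.1 to 1.57. No exposed array reached down to the highest control array. The change was 1.14 at the low dose (SE 0.19, 2.2-fold, limma adjusted p = 0.00117), 1.12 at the medium dose (SE 0.19, 2.17-fold, adjusted p = 0.00102) and 1.06 at the high dose (SE 0.19, 2.08-fold, adjusted p = 0.000869). The doses did not differ from each other in a way the test could detect. The high minus low dose difference was −0.08 with a 95% interval from −0.45 to 0.29, and the medium minus low dose difference was −0.02 (−0.42 to 0.38). Within each of the 4 slides that held both groups, Tnfrsf11b was higher after exposure at every dose, by 0.25 to 1.45 at the low, 0.63 to 1.46 at the medium and 0.3 to 1.35 at the high dose. Its median Cy5 signal was 4.7 times the detection limit, and it was detected on all 22 arrays. In the paper's RT-qPCR of these cells, Tnfrsf11b was lower than control at the low dose, unlike on the arrays. There it was higher at the medium dose and most so at the high dose.

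Tnfrsf12a encodes Fn14, the small TRAF-binding receptor of TWEAK (Tnfsf12), which is known to be inducible by growth factors and tissue injury. On the control arrays it was at −1.27, −0.94, −1.01, −1.03 and −1.1 (mean −1.07 ± 0.12, SD, n = 5), well under the reference RNA. On the medium dose arrays it was at 0.05, 0.08, 0.05, 0.06 and 0.11 (0.07 ± 0.02, SD, n = 5), close to the level of the reference. The low dose arrays ran from −0.26 through a median of −0.14 to 0.2, and the high dose arrays from −0.74 through 0.08 to 0.36. The groups did not overlap with control at any dose, and high dose replicate 1, at −0.74, was the exposed array nearest to the controls. The rise was 0.93 at the low dose (SE 0.13, 1.9-fold, limma adjusted p = 0.000242), 1.14 at the medium dose (SE 0.14, 2.2-fold, adjusted p = 1.99e-05) and 0.99 at the high dose (SE 0.13, 1.99-fold, adjusted p = 3.66e-05). The order of the fitted levels was control, low, high and medium dose, and only control differed from its neighbour beyond the spread. The medium minus low dose difference was 0.21, with an interval from −0.07 to 0.49. Within slides the rise was 0.84 to 1.08, 1.06 to 1.21 and 0.79 to 1.18 at the 3 doses, positive on 4 of 4 slides at each. When arrays were centred on their median in place of loess, the low dose rise was 0.79 and was no longer called (adjusted p = 0.164), while the medium (1.27, adjusted p = 0.00811) and high dose (0.95, adjusted p = 0.0297) were. Fn14 gave a strong signal, at a median of 188 times the detection limit.

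Tnfrsf1a encodes TNFR1, the broadly expressed death domain receptor of TNF. It was measured by 2 probes, and the brighter one, printed in 10 spots, is described first. The control arrays were at 0.5, 0.5, 0.69, 0.83 and 0.38 (mean 0.58 ± 0.18, SD, n = 5) and the medium dose arrays at 0.37, −0.11, 0.15, 0.32 and 0.05 (0.16 ± 0.2, SD, n = 5). The low dose arrays ran from −0.08 through a median of 0.19 to 0.37, and the high dose arrays from −0.4 through −0.15 to −0.07. Every exposed array was below the lowest control array, and the highest high dose array, at −0.07, was level with the lowest low dose array, at −0.08. The change was −0.75 at the high dose (SE 0.1, 95% interval −0.96 to −0.54, 1.68-fold lower, limma adjusted p = 4.28e-05). At the low and medium dose it was −0.4 (SE 0.1, adjusted p = 0.0315) and −0.42 (SE 0.1, adjusted p = 0.0174), under the 1.5-fold limit. The adjusted p at the low dose was over 0.05 without control replicate 3 or 4 or low dose replicate 2, 3, 4 or 6 (up to 0.12), and at the medium dose without control replicate 3 or 4 or medium dose replicate 2 or 3 (up to 0.0649). On each of 4 slides the exposed arrays were lower, with differences from −0.72 to −0.24 at the low, −0.53 to −0.33 at the medium and −0.91 to −0.44 at the high dose. The high minus low dose difference was −0.35 (95% interval −0.55 to −0.15), which did not pass adjustment over all probes (adjusted p = 0.152). With arrays centred on their median, the high dose change was −0.79 with an adjusted p of 0.161 and was not called. The other probe, with 1 spot, gave −0.41, −0.52 and −0.65 at the 3 doses (SE 0.2 each, adjusted p = 0.365, 0.169 and 0.0448). It was called at the high dose, a call kept in 9 of 22 fits that left out 1 array. It was lost without control replicate 2, 3 or 4, low dose replicate 3 or 5, medium dose replicate 3, 4 or 5 or any high dose replicate but replicate 2 (adjusted p = 0.0521 to 0.137), and without the slide term (0.0548), with normexp background correction (0.0516), with marked spots kept (0.0513), in the series matrix (0.247), in an ordinary linear model (0.11) and without slide 2, 3, 4 or 5 (0.145, 0.236, 0.0852 and 0.0521).

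**Figure D3:**
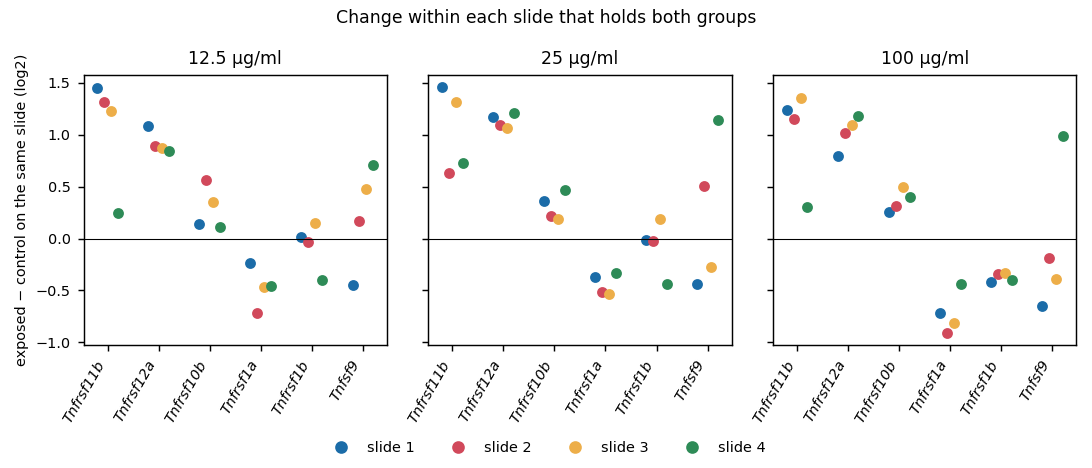
Mean of the exposed arrays minus mean of the control arrays on the same slide (y axis, log2). The x axis holds the 5 receptors and the ligand Tnfsf9, with 1 panel per dose and points coloured by slide. All 4 slides lie above 0 for Tnfrsf11b, Tnfrsf12a and Tnfrsf10b and below 0 for Tnfrsf1a at each dose. Tnfrsf1b is below 0 on all 4 slides at the high dose.

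Promoter sequence was at hand for 6 of the 9 genes from RefSeq (build GRCm38.p6). The 250 bases before the annotated start are shown for Tnfrsf12a (chr17:23677450-23677699, minus strand) and Tnfrsf1a (chr6:125349473-125349722, plus strand), the called genes with an entry, which moved in opposite directions. They are written 5′ to 3′ on the gene's strand, and capitals mark the GC box GGGCGG on either strand, the core of the binding site of Sp-family factors. Overlapping or adjoining boxes run together.
Tnfrsf12a: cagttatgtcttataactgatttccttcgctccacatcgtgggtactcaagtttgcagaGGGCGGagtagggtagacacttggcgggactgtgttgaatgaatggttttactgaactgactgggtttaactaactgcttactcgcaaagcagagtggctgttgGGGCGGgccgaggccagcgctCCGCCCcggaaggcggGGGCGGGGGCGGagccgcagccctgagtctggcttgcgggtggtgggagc
Tnfrsf1a: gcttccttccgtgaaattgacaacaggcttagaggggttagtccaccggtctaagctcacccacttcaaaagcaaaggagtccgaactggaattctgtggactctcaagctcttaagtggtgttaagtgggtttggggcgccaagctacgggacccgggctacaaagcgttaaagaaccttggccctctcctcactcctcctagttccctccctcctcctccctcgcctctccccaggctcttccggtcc
The Tnfrsf12a promoter held 5 GC boxes, the nearest 38 bases before the start, and had 58.8% G and C. The Tnfrsf1a promoter held 0 and had 55.6% G and C. Of 32851 promoters of this length, 32.7% held at least 1 GC box. Among the other 4 entries, Tnfrsf1b held 2 boxes, Tnf 1, and Tnfsf10 and Tnfsf11 0. The AP-1 motif TGANTCA (6.75% of all promoters) and the NF-kB motif (3.9%), searched on both strands, were in none of the 6 windows. A match is only a match of letters, and these windows do not cover distal elements.

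Tnfrsf10b encodes DR5, the death domain receptor of TRAIL in the mouse. It was at 0.47, 0.46, 0.62, 0.43 and 0.59 on the control arrays (mean 0.52 ± 0.08, SD, n = 5) and at 0.96, 0.7, 0.81, 0.66 and 1.06 on the medium dose arrays. The low dose arrays ran from 0.56 through a median of 0.71 to 0.99, and the high dose arrays from 0.63 through 0.86 to 1.12. Low dose arrays overlapped with the control range, and all medium and high dose arrays lay above it. The differences were small, 0.25 (SE 0.09, limma adjusted p = 0.18), 0.32 (SE 0.1, adjusted p = 0.057) and 0.35 (SE 0.09, adjusted p = 0.0215), and none reached 1.5-fold. The high dose value, 1.28-fold, exceeded an adjusted p of 0.05 without control replicate 3 or 4 or high dose replicate 3 or 6, with a highest value of 0.0745. DR5 was higher than control on 4 of 4 slides at each dose, by 0.11 to 0.56, 0.19 to 0.47 and 0.26 to 0.5. Its signal was 18.8 times the detection limit in the median.

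Tnfrsf1b encodes TNFR2, the TRAF-binding TNF receptor, which is best known from immune and endothelial cells. The control arrays were at −0.78, −0.85, −0.86, −0.45 and −0.25 (mean −0.64 ± 0.27, SD, n = 5) and the medium dose arrays at −0.51, −1.14, −0.67, −0.46 and −0.69. The low dose arrays ran from −1.02 through a median of −0.64 to −0.47, and the high dose arrays from −1.33 through −1.06 to −0.65. The low and medium dose arrays overlapped with the control range, and 4 of 6 high dose arrays lay below it (6 of 6 once slide differences were removed). The change was −0.05 (SE 0.11, limma adjusted p = 0.913) at the low, −0.06 (SE 0.12, adjusted p = 0.899) at the medium and −0.38 (SE 0.11, adjusted p = 0.0415, 1.3-fold lower) at the high dose, so none was called. In 11 of 22 fits without 1 array the high dose adjusted p was over 0.05, up to 0.139, namely without control replicate 1, 2, 4 or 5, low dose replicate 5, medium dose replicate 4 or any high dose replicate but replicate 6. The median signal was only 1.62 times the detection limit, and background was not subtracted.

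After slide differences were removed, the values of exposed and control arrays did not overlap for 4 of 6 detected members at the low dose, 4 of 7 at the medium and 5 of 8 at the high dose. Over all detected genes this held for 11.3%, 15.9% and 20%. All these members were receptors, but few ligands entered the count, which took detected members only. The ligands in it were Tnfsf9 at every dose, Tnf at the medium and high dose and Tnfsf11 at the high dose. Between doses, 0 of the 9 genes were called in any of the 3 comparisons by limma, where the background was 0.463% of detected genes for high against low dose and 0% for both others. At an unadjusted p under 0.05, 2 members differed between high and low dose and 2 between high and medium dose, Tnfrsf1a and Tnfrsf1b in both, and 0 between medium and low dose, where 14.9%, 5.47% and 8.71% of all detected genes passed the same limit.

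Of the ligands, only Tnfsf9 gave a measurable signal on every array. Tnfsf9 encodes 4-1BB ligand, a costimulatory ligand for T cells that is also made by epithelial and carcinoma cells. The control arrays were spread widely, at 1.01, 0.62, −0.03, −0.3 and −1.04 (mean 0.05 ± 0.8, SD, n = 5), with the highest values on slide 1 and the lowest on slide 4. The medium dose arrays were at 0.45, 0.3, −0.3, 0.22 and 0.1, the low dose arrays ran from −0.33 through 0.03 to 0.55, and the high dose arrays from −0.48 through −0.21 to 0.46. All exposed arrays lay inside the range of the controls. The change was 0.08 (95% interval −0.35 to 0.52), 0.1 (limma adjusted p = 0.909) and −0.17 (interval −0.6 to 0.27), and within slides it took both signs, from −0.65 to 0.99 at the high dose.

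TNF itself, the ligand of TNFR1 and TNFR2, was at the edge of detection. Its Cy5 signal was above the limit on 12 of 22 arrays, 1 of 5 control, 3 of 6 low dose, 4 of 5 medium dose and 4 of 6 high dose, but only from 0.749 to 1.28 times the limit. It was well above background by the scanner software's criterion on 1 array, a control. The reference RNA, in contrast, gave a Tnf signal on all 22 arrays, at a median of 6.05 times the limit. The fitted changes of −0.03, −0.1 and −0.1 (SE 0.16 each, limma adjusted p = 0.965, 0.873 and 0.859) compare values near background, and no fold is given for them.

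Tnfsf11 encodes RANKL and Tnfsf10 encodes TRAIL, the ligands that osteoprotegerin binds. Tnfsf11 was above the limit on 12 of 22 arrays and well above background on 0, with a signal of 0.651 to 1.24 times the limit. Its changes were 0, 0.04 and 0.09 (SE 0.1 each, limma adjusted p = 0.997, 0.929 and 0.764). Tnfsf10 was detected on 2 of 22 arrays, control replicate 5 at 2.74 times the limit and low dose replicate 4 at 1.52 times. Its median signal was 0.865 times the limit, and its changes were 0.32, 0.13 and 0.14 (adjusted p = 0.406, 0.815 and 0.784). With 4 of 5 control arrays and all medium and high dose arrays under the limit, no fold is given for Tnfsf10.

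**Figure D4:**
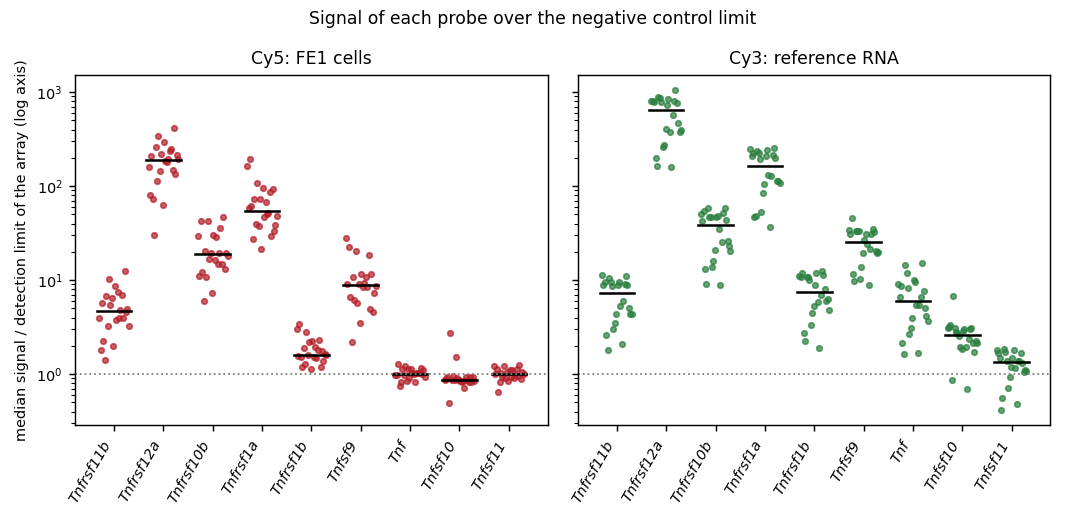
Signal of each gene's probe divided by the detection limit of the same array (y axis, log scale), with the sample (Cy5) and reference (Cy3) channels in separate panels and 1 point per array. The dotted line at 1 is the limit. The 5 receptors and Tnfsf9 are above it on all arrays, and Tnf, Tnfsf10 and Tnfsf11 lie on or around it in the sample channel.

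The genes whose pattern over the 22 arrays was nearest to each called member were named by the smallest root mean square difference, among 16027 candidate genes. They were Glce, Zbtb10 and Dusp6 for Tnfrsf11b (0.24, 0.25 and 0.26 on the log2 scale, against a median of 1.03). For Tnfrsf12a they were Glce, Nabp1 and Dusp6 (0.18, 0.19 and 0.21, median 0.93). For Tnfrsf1a they were Nptn, Surf4 and Agpat3 (0.09, 0.09 and 0.11, median 0.55). Glce, an enzyme of heparan sulphate synthesis, and Dusp6, a phosphatase of ERK, were thus near both raised receptors. The points share arrays, reference and slide terms, and the measure is a description.

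Further genes of the pathway were read from 5 lists of 95 genes in all, 94 of them on the array. Among the detected ones, 6 of 71 were called at the low dose, 8 of 69 at the medium and 10 of 77 at the high dose (8.45%, 11.6% and 13%), against 5.28%, 8.97% and 11.9% of all detected genes. Of 23 other receptors, 2 of 16, 2 of 16 and 3 of 18 were called (12.5%, 12.5% and 16.7%), with median changes of 0.07, 0.1 and 0.06. Tnfrsf23, a decoy receptor of TRAIL, rose from 0.43 ± 0.29 in control to 1.4 ± 0.2, 1.3 ± 0.15 and 1.39 ± 0.21 (SD, n = 5, 6, 5 and 6), by 0.94, 0.88 and 0.92 (SE 0.13 each, limma adjusted p = 0.000199, 0.000296 and 7.45e-05). Its call was lost at all doses when arrays were centred on their median (adjusted p = 0.209, 0.0897 and 0.0692). Its neighbours Tnfrsf22 and Tnfrsf26 are close paralogs, so some cross-hybridisation cannot be told apart from its own signal. They changed by 0.46 (adjusted p = 0.06) and 0.39 (adjusted p = 0.138) at the high dose. Fas, the death receptor of Fas ligand, fell from 1.46 ± 0.36 (SD, n = 5) to 0.25 ± 0.36 (SD, n = 6) at the high dose. The changes at the 3 doses were −0.78 (SE 0.16, adjusted p = 0.00825), −0.87 (SE 0.17, adjusted p = 0.00249) and −1.13 (SE 0.16, adjusted p = 9.52e-05). Its low and medium dose calls were lost with median centring (adjusted p = 0.211 and 0.325), and the low dose call also with only the groups compared (0.0563) and without slide 1 (0.0514) or slide 2 (0.0553). Tnfrsf25, or DR3, passed at the high dose (−0.93, SE 0.27, adjusted p = 0.0374). This call was lost without control replicate 1, 3 or 4 or high dose replicate 1, 2, 3 or 6 (adjusted p = 0.052 to 0.133). Median centring (adjusted p = 0.0575), the scanner ratio (0.286) and an ordinary linear model (0.107) lost it as well. So did leaving out slide 1 (0.312), slide 2 (0.0875) or slide 3 (0.204).

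The partners of the raised receptors were looked up after their values were seen. Tnfsf12 (TWEAK), the ligand of Fn14, was detected on all 22 arrays and changed by −0.14, −0.17 and −0.14 (SE 0.12 each, limma adjusted p = 0.682, 0.622 and 0.664). Tnfrsf11a (RANK), the signalling receptor of RANKL, changed by 0, 0.06 and 0.03 (adjusted p = 0.992, 0.887 and 0.941). Of the 14 other ligands, 13 were on the array and 0 of the 2, 2 and 6 detected were called by limma (0, 0 and 2 at an unadjusted p under 0.05, which 27.7%, 33.1% and 36.2% of all detected genes met). Fasl and Lta were detected on 0 arrays.

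Among 32 detected signal transducers, 1, 2 and 2 were called (3.12%, 6.25% and 6.25%), against 5.28%, 8.97% and 11.9% of all detected genes. Those called were lower than control, as were 3.06%, 4.68% and 6.44% of all detected genes. Birc2, the ubiquitin ligase cIAP1 that modifies RIPK1 and NIK, changed by −0.66, −0.7 and −0.82 (SE 0.1 each, limma adjusted p = 0.000565, 0.000248 and 1.75e-05). Without the slide term, Birc2 was not called at any dose (adjusted p = 0.343, 0.202 and 0.0836). In the series matrix its low and medium dose calls were lost, with a change of −0.57 at each, just under 1.5-fold. Map3k14, the kinase NIK of the noncanonical NF-kB pathway, changed by −0.37 (adjusted p = 0.129), −0.63 (SE 0.13, adjusted p = 0.0041) and −0.67 (SE 0.13, adjusted p = 0.00122). Without control replicate 2 or 3 or medium dose replicate 4, its medium dose change fell just under 1.5-fold, to −0.57 at the smallest, and the call was also lost without the slide term (adjusted p = 0.0711), with median centring (0.0782) and without slide 3 (0.0566). The other transducers, among them the adaptors, the caspases and the IKK subunits, were between −0.47 and 0.53 at the high dose and were not called, with a list median of 0.1.

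Of 21 genes known to respond to TNF, 3 of 16, 4 of 14 and 5 of 16 detected ones were called, in both directions, or 18.8%, 28.6% and 31.2% of them, against 5.28%, 8.97% and 11.9% of all detected genes. Tnfaip3, the NF-kB inhibitor A20, rose at every dose, from −1.29 ± 0.08 (SD, n = 5) in control to −0.55 ± 0.4 (n = 6), −0.35 ± 0.14 (n = 5) and −0.15 ± 0.31 (n = 6), by 0.78, 0.94 and 1.18 (SE 0.17 each, limma adjusted p = 0.00899, 0.00151 and 6.67e-05). Its low and medium dose calls were lost with median centring (adjusted p = 0.435 and 0.142), and the low dose call also with only the groups compared (0.0849) and without slide 3 (0.0741). Tnfaip6, the hyaluronan-binding protein TSG-6, was called higher at the medium (1.02, SE 0.27, adjusted p = 0.0313) and high dose (0.94, SE 0.27, adjusted p = 0.0313). These 2 calls were not firm. They were lost without control replicate 2 or 5, without medium dose replicate 1, 4 or 5 for the first (adjusted p = 0.0717 to 0.138) or high dose replicate 1, 3, 4 or 6 for the second (adjusted p = 0.0534 to 0.153), and without the slide term (0.611 and 0.564). Tnfaip8, a regulator of apoptosis, changed by −0.77, −0.98 and −1.19 (SE 0.12 each, adjusted p = 0.000609, 3.27e-05 and 1.23e-06), and its low dose call was lost without the slide term (0.0543). Vcam1, the adhesion molecule that TNF classically induces, changed by −0.59, −0.62 and −0.77 (SE 0.13 each, adjusted p = 0.0111, 0.00644 and 0.000475). Its low dose call was lost without any of 7 arrays, control replicates 2, 3 and 4, low dose replicates 1, 4 and 5 and high dose replicate 5, and its medium dose call without medium dose replicate 1, each time because the change came to under 1.5-fold (−0.52 at the smallest for the low dose and −0.54 for the medium). With median centring the calls at both these doses were lost (adjusted p = 0.0562 and 0.289). The low dose change came to under 1.5-fold without the slide term (−0.55), with slide as a random block (−0.56) and with a replicate block in its place (−0.53). The same held by the scanner ratio (−0.48), in the series matrix (−0.51), without slide 5 (−0.57) and without the pair of arrays that stood apart (−0.55). With only the groups compared (−0.57, adjusted p = 0.103) and without slide 2 (−0.51, adjusted p = 0.0985) it missed both limits. Without slide 3 the low dose change was −0.61 and only the adjusted p failed (0.0632). The medium dose call was also lost in the series matrix (−0.57) and without slide 3 (adjusted p = 0.0591). Ccl2, the monocyte chemokine MCP-1, changed by 0.06 (adjusted p = 0.955), −0.46 (adjusted p = 0.444) and −1 (SE 0.25, adjusted p = 0.0148), and its high dose call was lost without control replicate 1 or 2 or high dose replicate 3 (adjusted p = 0.0504 to 0.0599), with median centring (0.166), in an ordinary linear model (0.0552) and without slide 1 (0.264) or slide 3 (0.0632). The inducible genes Ccl20 and Csf2 were detected on 0 arrays, Icam1 on 2, Cxcl1 on 3 and Cxcl2 on 1 of 22. The median change of the list was −0.06, −0.13 and −0.17.

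**Figure D5:**
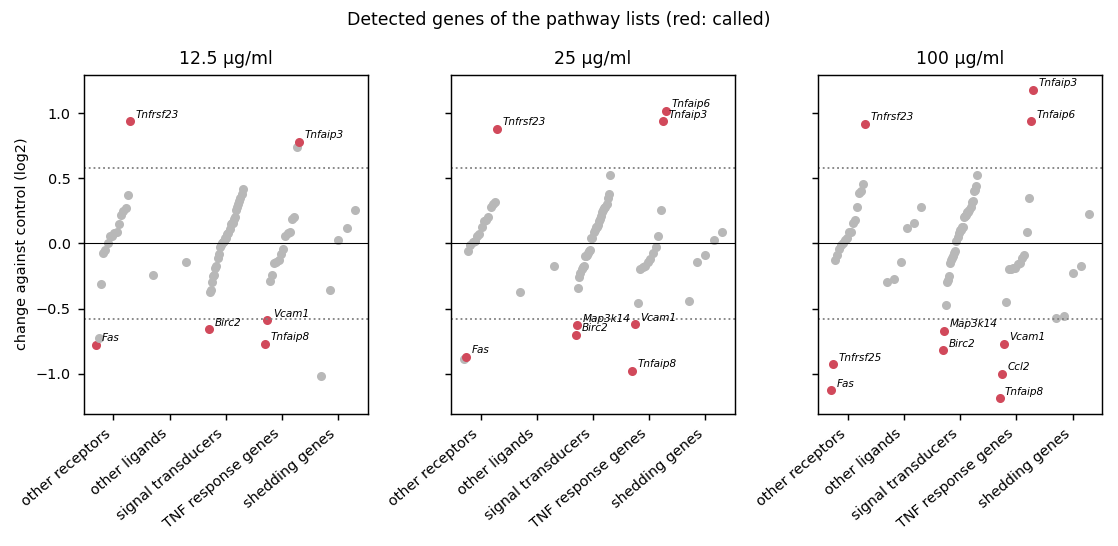
Change against control (y axis, log2) of each detected gene of the 5 pathway lists (x axis), with 1 panel per dose. Called genes are red and named, and dotted lines mark 0.58 in either direction. At the high dose 3 named genes lie above the upper line and 7 below the lower line.

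Of the 5 genes of receptor and ligand shedding, 0 were called at any dose by limma, against 5.28%, 8.97% and 11.9% of all detected genes. At the 3 doses 1, 1 and 1 had an unadjusted p under 0.05, which 27.7%, 33.1% and 36.2% of all detected genes met. The changes of the list ran from −1.02 to 0.26 at the low, −0.44 to 0.09 at the medium and −0.57 to 0.23 at the high dose. Adam10, a sheddase of TNF family proteins, changed by −0.36, −0.44 and −0.57 (SE 0.11 each, adjusted p = 0.0764, 0.0185 and 0.00151), at the high dose just under 1.5-fold. Adam17, the TNF-converting enzyme, changed by 0.03, −0.09 and −0.17 (SE 0.13, 0.14 and 0.13) and did not pass.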

How the data were processed

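Per the labels, RNA of FE1 cultures (Cy5) and Universal Mouse Reference RNA (Cy3) was hybridised to 22 Agilent arrays. Per the file headers, the deposited scanner files were made with Feature Extraction 10.7.3.1 on a G2505C scanner at 3 µm, with an array grid on mm9. They hold the median intensity of each spot, not background-subtracted here, and the scanner software's log10 ratio, which the authors deposited and which served only as an alternative. The deposited series matrix holds log2 ratios processed by the authors. Each of its 22 columns correlated best with its own array (0.84 to 0.99) and had a median between 0 and 0.03, and direction and scale fitted log2 of Cy5 over Cy3.

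From 62976 spots, 3671 control spots and spots marked as outliers were left out. Median intensities were turned into log2 ratios with loess within each array, spots of a probe were combined by their median, and 55681 probes were fitted with limma 3.58.1 (R 4.3.3) as dose group plus slide. This replaced the permutation-based Fs test of MAANOVA named in the study's methods. Detection needed a Cy5 intensity above the 5% trimmed mean plus 3 trimmed SDs of 308 negative control spots. Accessions named 26413 probes (47.4%) through RefSeq genes of GRCm38.p6, used for names only. A gene stands for its probe with the highest mean Cy5 signal. The analysis was tested on simulated data.

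The 9 genes, the lists and the markers were chosen with earlier results of these data known. Named were the 9 genes, up to 5 called genes of each list by size at the high dose, and the 3 nearest patterns of each called member. Partners, paralogs and genes just under a limit were named after their values were seen. The study's methods give 3 separate experiments and the labels 3 exposures per dose and experiment-day, without assigning arrays to either. With 5 or 6 arrays per group, some arrays of a group therefore share an experiment or a day, which no fit could account for, and p-values measure the spread between these samples. Equal replicate numbers were not treated as pairs in the main fit. After slide differences were removed, the correlations of deviations were −0.62 to 0.46 over 5 pairs per dose. On slide 1, which held replicates 1 and 2 of every group, they ran from 0.2 to 0.46. All arrays of replicate 3 lay on slide 3 and all of replicate 4 on slide 2, where the slide term takes up what they share. Whether equal numbers mark pairs could therefore not be decided. Alternatives were the slide term, replicate block, centring, background correction, marked spots, spot mean, scanner ratio, series matrix, filters, thresholds, and leaving out arrays or slides. The number of arrays limits the precision. Columns of other samples were not present (0), and the nanotube doses of the labels without an array were not analysed here.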

Additional observations from a re-analysis of the deposited data

Results flagged for a closer look

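Of 36 sets of values tested for an array far from the rest of its group (each of the 9 genes in each of the 4 groups), 1 stood out: Tnfrsf12a on high dose replicate 1, at a log2 ratio of −0.74, while the other high dose arrays had a highest value of 0.36 and the group a median of 0.08. Chance gives about 1 such array in 20 groups. Without that array the high dose rise of Tnfrsf12a was 1.15 on the log2 scale and was still called by limma.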

How the results depend on the processing

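No call among the 9 genes was lost or gained when any 1 of the 22 arrays was left out. The numbers of members called then ranged from 2 to 2, 2 to 2 and 3 to 3 at the low, medium and high dose and from 0 to 0 between doses, and those of the pathway genes from 5 to 7, 6 to 9 and 7 to 11 (6, 8 and 10 with all arrays). With a replicate block in place of slide or beside it, 2, 2 and 3 members and 7, 9 and 10 pathway genes were called, and no call among the members changed. Median centring, which moved the median of all genes by −0.11 at the low dose, left 1 member called at the low dose and 2, 2 and 6 pathway genes at the 3 doses, and cut the genes called overall from 720, 1203 and 1671 to 313, 434 and 871. A 2-fold threshold left 1 member at the low and 1 at the high dose and 0, 1 and 4 pathway genes, and no fold threshold gave 5 members at the high dose. Without the slide term 3 and 5 pathway genes were called at the low and medium dose, with only the groups compared 3 at the low dose, and without slide 3 5 at the medium dose. Without slide 1, 0 members and 0 pathway genes could be called at the medium dose, because only 3 arrays per group remain and detection on 4 is needed. There Tnfrsf11b and Tnfrsf12a still had adjusted p of 0.0478 and 9.21e-05.

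Directions turned only for genes that were not called in either setting. Tnfrsf1b was 0.03 and 0.04 at the low and medium dose without slide 4 and 0.01 at the medium dose without the pair of arrays that stood apart. Tnf at the low dose was 0.02 without the slide term, 0.14 by the scanner ratio, 0.01 without slide 1, 0.01 without slide 4 and 0.02 without that pair, and without slide 4 it was 0.05 at the medium and 0.02 at the high dose. Tnfsf9 at the low dose was −0.01 with the replicate block and slide, −0.04 with median centring and −0.09 without slide 4, −0.16 at the medium dose without slide 4, and 0.16 at the high dose without slide 1. Tnfsf10 was −0.45 and −0.13 at the medium and high dose by the scanner ratio and −0.05 and −0.06 in the series matrix. Tnfsf11 at the medium dose was −0.04 with median centring, −0.23 by the scanner ratio, −0.08 in the series matrix and −0.01 without slide 3, and −0.09 by the scanner ratio at the high dose. Ccl2 at the low dose was −0.04 with the replicate block and slide, −0.1 with median centring, and −0.06, −0.09 and −0.07 without slide 2, 3 or 4, and 0.01 at the medium dose without slide 1. With 1 array left out, Tnfrsf1b ranged from −0.11 to 0.02 and −0.15 to 0.02 at the low and medium dose, Tnf from −0.17 to 0.12, −0.24 to 0.06 and −0.24 to 0.05 at the 3 doses, Tnfsf9 from −0.15 to 0.24 and −0.14 to 0.26 at the low and medium dose, Tnfsf11 from −0.03 to 0.1 at the medium dose and Ccl2 from −0.13 to 0.2 at the low dose. The cause was not tested. Signal over background limits Tnf, Tnfsf10, Tnfsf11 and, in part, Tnfrsf1b.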
